A study of Mus musculus with 12 samples.

Results

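Pyroptosis and necroptosis genes were followed in the mouse macrophage-like line J774A.1 after hypochlorous acid (HOCl). They were Nlrp3, Pycard, Casp1, Casp4, Gsdmd, Il18, Ninj1, Ripk1, Ripk3 and Mlkl, taken by symbol, and all 10 were found among the 28977 gene IDs of the deposited table. All 10 also passed the filter on low values, an FPKM (fragments or reads mapped, scaled by exon length and by depth) of at least 1 in at least 3 libraries, which kept 12026 genes. Messenger RNA was sequenced in 12 libraries of 4 groups of 3. One group was kept in cell media, a second was given the salt solution HBSS (0 µM HOCl, the vehicle control), and the other two were given 20 µM or 100 µM HOCl in HBSS. All groups then went back into full medium for 24 h after the 1 h treatment. The study's design text says that lethal and sublethal doses were used, without saying which is which. HOCl is the oxidant that myeloperoxidase, an enzyme of neutrophils, makes from hydrogen peroxide and chloride.

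Pyroptosis is a lytic, inflammatory death of macrophages. A sensor such as NLRP3 gathers the adaptor ASC (encoded by Pycard) and caspase-1 into an inflammasome. Caspase-1 then cleaves gasdermin D (Gsdmd), whose fragment makes pores in the plasma membrane, and processes interleukin-18 (Il18). Mouse caspase-11, encoded by Casp4, cleaves gasdermin D after binding bacterial lipopolysaccharide inside the cell. NINJ1 ruptures the plasma membrane at the end of this and other lytic deaths. Necroptosis is a caspase-independent lytic death in which RIPK1 engages RIPK3 and RIPK3 phosphorylates MLKL, which permeabilizes the membrane. These proteins are switched on mainly by cleavage, assembly and phosphorylation, which RNA levels do not measure.

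The values behind the libraries rested on 17683939 to 21408521 reads each, as recovered from the FPKM steps. The members had between 66 reads (Il18) and 3740 reads (Ninj1) in a library. All 10 macrophage markers passed the filter, and their summed level was 3418 to 3733 FPKM in HBSS and 3931 to 4453 FPKM at 100 µM HOCl. Lyz2 made the largest part of that sum, at 2020 to 2294 FPKM in HBSS and 2515 to 2892 FPKM at 100 µM. Csf1r was also above HBSS in every 100 µM library, while Cd68 and Adgre1 overlapped HBSS. Of 27 markers of fibroblasts, epithelium, T cells, B cells, neutrophils and endothelium that were found, 25 were below 1 FPKM in every library. The exceptions were Lck, at 3.31 to 6.18 FPKM, and S100a8, at 9.71 to 19.1 FPKM. In these bulk samples fewer cells of a kind and less RNA per cell cannot be told apart. Nothing in the labels says that replicates were separate cultures, so p-values measure the spread between these samples only. The first 2 cell media libraries (replicates 1 and 2) were set apart: 19.25% of the kept genes were above and 37.2% below all of the other 10 in both of them. For that reason the adjusted p-values of the 10 genes at 100 µM, and their differences between HBSS and cell media that moved most, are also given without these 2. The labels list a pair of sequencing instruments but do not tie libraries to them, and the part of the instrument in this separation was not tested.

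RefSeq promoter windows of build GRCm38.p6 were matched for 9 of the 10 genes, in 12 windows, and Gsdmd had none. The 250 bases before the annotated start are shown for the 4 genes whose 100 µM libraries all lay above the HBSS libraries, together with Casp4, which had the lowest log2 difference of the 10 there. They are written 5′ to 3′ on the strand of the gene, and capitals mark matches to the NF-kB consensus on either strand, some of them overlapping. Where a gene had more than 1 window, the most upstream one is given.
Nlrp3, chr11:59541319-59541568, plus strand: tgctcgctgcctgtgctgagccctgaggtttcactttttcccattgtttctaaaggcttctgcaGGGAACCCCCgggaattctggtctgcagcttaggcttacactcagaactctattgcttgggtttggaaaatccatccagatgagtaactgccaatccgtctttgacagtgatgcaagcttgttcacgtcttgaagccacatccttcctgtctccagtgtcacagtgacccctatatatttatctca
Pycard, chr7:127993868-127994117, minus strand: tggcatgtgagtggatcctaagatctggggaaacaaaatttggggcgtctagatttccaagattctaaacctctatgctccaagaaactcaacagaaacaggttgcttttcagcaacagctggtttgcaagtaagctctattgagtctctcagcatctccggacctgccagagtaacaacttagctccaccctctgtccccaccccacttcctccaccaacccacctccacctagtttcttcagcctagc
Casp4, chr9:5308599-5308848, plus strand: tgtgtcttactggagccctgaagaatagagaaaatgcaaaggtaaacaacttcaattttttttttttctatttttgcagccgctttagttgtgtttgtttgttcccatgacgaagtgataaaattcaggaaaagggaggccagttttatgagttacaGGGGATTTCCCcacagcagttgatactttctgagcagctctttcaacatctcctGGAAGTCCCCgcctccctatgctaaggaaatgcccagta
Ninj1, chr13:49187279-49187528, plus strand: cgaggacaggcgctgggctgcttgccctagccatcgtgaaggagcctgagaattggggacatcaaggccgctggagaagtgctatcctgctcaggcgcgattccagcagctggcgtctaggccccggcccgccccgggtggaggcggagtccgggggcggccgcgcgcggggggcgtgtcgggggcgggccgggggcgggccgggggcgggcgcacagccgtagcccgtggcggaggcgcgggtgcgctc
Ripk3, chr14:55788858-55789107, minus strand: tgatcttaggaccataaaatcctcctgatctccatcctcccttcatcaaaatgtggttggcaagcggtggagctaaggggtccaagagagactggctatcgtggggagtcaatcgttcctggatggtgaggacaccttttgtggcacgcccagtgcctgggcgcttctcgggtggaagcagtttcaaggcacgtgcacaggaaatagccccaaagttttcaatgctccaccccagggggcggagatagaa
The Casp4 window held matches at -93 to -84, at -92 to -83 and at -39 to -30 from the start, and the Nlrp3 window held 1 at -186 to -177. These were 2 of the 9 genes and 3 of the 12 windows, while 7.25% of 32851 RefSeq windows of this length hold a match. The other Nlrp3 window held none, and the other Casp4 window overlaps the one shown. No window of the 9 genes held the antioxidant response element core TGACNNNGC (10.2% of all windows), the interferon-stimulated response element core (GAAA, any 2 bases, GAAA; 2.98%) or the AP-1 motif TGANTCA (6.75%), searched on both strands. A match describes the letters and is no evidence of binding. The Ninj1 window was 76% G and C, the Ripk3 window 54%, and the Casp4 window 41.6%.

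After 100 µM HOCl, 8 of the 10 genes had a higher log2 level than in HBSS and 2 (Casp4 and Il18) a lower one, but limma called 0 of them at a Benjamini-Hochberg adjusted p under 0.05. The same fit called 0 of all 12026 genes (0%). The 4 genes with no overlap between the groups were Nlrp3, Pycard, Ninj1 and Ripk3, all higher at 100 µM, where 16.5% of all genes were higher without overlap and 17.6% lower without overlap. The median difference of the 10 was 0.10 on the scale of log2(FPKM + 1), against -0.01 for all genes. At an unadjusted p under 0.05 there was 1 of the 10 genes, Ripk3, against 933 (7.76%) of all genes, and limma-voom on the recovered reads also called 0 genes. Without cell media replicates 1 and 2 the differences from HBSS stayed as they were and their spread was estimated anew, with limma adjusted p-values of 0.162 for Nlrp3, 0.476 for Casp1, 0.526 for Casp4, 0.185 for Gsdmd, 0.550 for Il18, 0.858 for Ripk1 and 0.455 for Mlkl, and those of Pycard, Ninj1 and Ripk3 are with each gene.

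**Figure D1:**
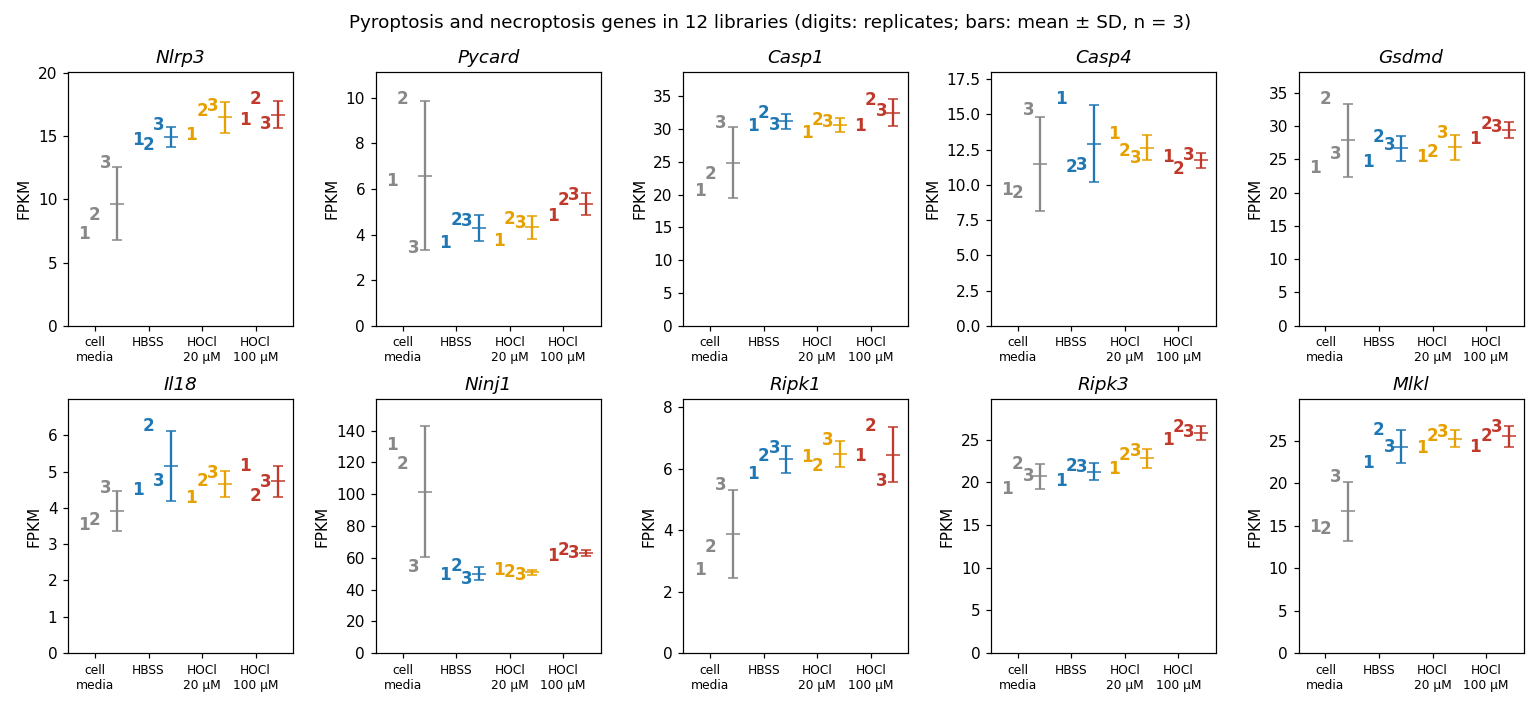
FPKM (y axis, from 0) of each of the 10 genes in the 4 groups (x axis); digits are the replicates of a group and the bar beside them is the mean ± SD (n = 3). Ninj1, Ripk3 and Pycard at 100 µM HOCl lie above all HBSS and 20 µM libraries, and cell media replicates 1 and 2 lie apart in most panels.

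Nlrp3, the sensor, stood at 7.28, 8.78 and 12.9 FPKM in cell media and at 14.7, 14.3 and 15.8 FPKM in HBSS. After HOCl it stood at 15.1, 17.0 and 17.3 FPKM with 20 µM and at 16.2, 17.9 and 15.9 FPKM with 100 µM. The 100 µM libraries lay just above the HBSS libraries, the 20 µM libraries overlapped both, and all cell media libraries were lower than the rest. Against HBSS the 100 µM group differed by 0.15 (SE 0.15, limma adjusted p = 0.736) and the 20 µM group by 0.13 (SE 0.15, adjusted p = 1.00). In the order of group means, 100 µM (16.7 ± 1.07 FPKM, SD, n = 3), 20 µM (16.5 ± 1.21) and HBSS (14.9 ± 0.803) each overlapped their neighbour, and HBSS and cell media (9.65 ± 2.90) did not.

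Pycard, the adaptor, was among the low members, with 3.65, 4.63 and 4.59 FPKM in HBSS and 3.74, 4.70 and 4.50 FPKM at 20 µM. At 100 µM it was at 4.81, 5.50 and 5.73 FPKM. Every 100 µM library was above every HBSS and every 20 µM library. The mean was 24.7% higher than in HBSS, a log2 difference of 0.27 (SE 0.25, limma adjusted p = 0.717), and 0.26 higher than at 20 µM (SE 0.25, adjusted p = 0.825). Cell media held both extremes of the gene, 3.42 FPKM in replicate 3 and 6.35 and 9.94 FPKM in replicates 1 and 2, so that its SD of 3.27 FPKM was the widest of the 4 groups. Without replicates 1 and 2 the difference between 100 µM and HBSS had an SE of 0.10 and an adjusted p of 0.118 in limma.

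Casp1, which encodes the caspase of the inflammasome, was at 30.5, 32.5 and 30.6 FPKM in HBSS, at 29.5, 31.4 and 31.0 FPKM with 20 µM and at 30.4, 34.5 and 32.7 FPKM with 100 µM. The 3 groups overlapped, and the log2 difference at 100 µM was 0.06 (95% interval -0.22 to 0.33, limma adjusted p = 0.853). Its cell media libraries read 20.6, 23.1 and 30.9 FPKM, with replicate 3 inside the range of the treated libraries. Casp4 read 16.1, 11.3 and 11.4 FPKM in HBSS, 13.6, 12.4 and 11.9 FPKM with 20 µM and 12.01, 11.1 and 12.1 FPKM with 100 µM. HBSS replicate 1 was the highest Casp4 value of all 12 libraries, and the groups overlapped. The 100 µM difference was -0.11 (95% interval -0.49 to 0.27, limma adjusted p = 0.803) and turned to 0.05 without HBSS replicate 1.

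Gsdmd, the pore former, was at 24.6, 28.3 and 27.1 FPKM in HBSS, at 25.4, 26.2 and 28.9 FPKM with 20 µM and at 28.0, 30.3 and 29.9 FPKM with 100 µM. The lowest 100 µM library lay within the HBSS range. The difference of 0.14 had a 95% interval of -0.13 to 0.40 (limma adjusted p = 0.705). Cell media read 23.7, 34.0 and 25.8 FPKM, so that replicates 1 and 2 were the lowest and the highest of the 12 libraries, and all 4 groups overlapped in the order of their means.

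Il18, the cytokine, stood at 4.49, 6.24 and 4.73 FPKM in HBSS, at 4.26, 4.73 and 4.96 FPKM with 20 µM and at 5.16, 4.32 and 4.71 FPKM with 100 µM. Cell media stood at 3.53, 3.67 and 4.53 FPKM, and the 12 values rested on 66 to 128 reads a library. HBSS replicate 2 was the highest of all, and the HBSS and HOCl groups overlapped. The differences from HBSS were -0.11 at 20 µM (limma adjusted p = 1.00) and -0.09 at 100 µM (adjusted p = 0.766), and without HBSS replicate 2 the latter was 0.03. Il1b, the other main cytokine that caspase-1 processes, was near the floor at 0 to 0.196 FPKM, or 0 to 7 reads, and was not tested.

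Ninj1, the membrane-rupture gene, had the highest level of the 10 in every group and the largest log2 difference of the 10 at 100 µM. It read 48.9, 54.5 and 46.8 FPKM in HBSS and 52.5, 50.8 and 49.4 FPKM with 20 µM. With 100 µM it read 61.2, 64.9 and 63.1 FPKM, above each library of those 2 groups. The mean of 63.1 ± 1.84 FPKM (SD, n = 3) was 26.0% above the 50.1 ± 4.01 FPKM of HBSS, and the 20 µM mean was 50.9 ± 1.54 FPKM. On the log2 scale the 100 µM group differed from HBSS by 0.33 (SE 0.25, limma adjusted p = 0.686) and from 20 µM by 0.30 (SE 0.25, adjusted p = 0.825). The SE includes the spread of cell media, where Ninj1 read 131, 119 and 54.4 FPKM. Without cell media replicates 1 and 2 the same difference of 0.33 had an SE of 0.06, a 95% interval of 0.20 to 0.46 and an adjusted p of 0.0514 in limma, still above the threshold.

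Ripk1, the kinase upstream in necroptosis, was at 5.82, 6.43 and 6.69 FPKM in HBSS, at 6.37, 6.11 and 6.93 FPKM with 20 µM and at 6.41, 7.39 and 5.61 FPKM with 100 µM. The 100 µM group held both the highest and the lowest of these 9 libraries, and cell media read 2.72, 3.45 and 5.47 FPKM, below all of them. The log2 differences from HBSS were 0.03 at each dose, with limma adjusted p-values of 1.00 at 20 µM and 0.957 at 100 µM. The 100 µM difference turned to -0.06 without 100 µM replicate 2.

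Ripk3, the kinase that phosphorylates MLKL, read 20.1, 21.9 and 21.7 FPKM in HBSS, 21.5, 23.2 and 23.7 FPKM with 20 µM and 24.9, 26.4 and 25.9 FPKM with 100 µM. All 100 µM libraries were above the other 9, and the 20 µM libraries overlapped HBSS. Cell media stood at 19.2, 22.2 and 20.7 FPKM, and Gsdmd and Ripk3 were the members closest between the 2 control groups, at -0.05 and 0.04 in log2. The 100 µM mean was 21.2% above HBSS, a log2 difference of 0.27 (SE 0.08, 95% interval 0.10 to 0.43, limma adjusted p = 0.590). Against 20 µM the difference was 0.17 (95% interval 0.0041 to 0.34, limma adjusted p = 0.825), and 20 µM differed from HBSS by 0.10 (95% interval -0.07 to 0.26, adjusted p = 1.00). Without cell media replicates 1 and 2, the adjusted p between 100 µM and HBSS was 0.0560 in limma. S100a8, from the neutrophil marker list, read 13.9 to 16.4 FPKM at 100 µM and 9.83 to 12.7 FPKM in HBSS. It was highest in cell media replicates 1 and 2, at 19.1 and 17.6 FPKM. The other 4 neutrophil markers were below 1 FPKM in every library. The part of S100a8 in these differences was not tested.

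Mlkl, the executor of necroptosis, was at 22.4, 26.3 and 24.3 FPKM in HBSS, at 24.2, 25.6 and 26.1 FPKM with 20 µM and at 24.3, 25.6 and 26.7 FPKM with 100 µM. These groups overlapped throughout. The difference at 100 µM was 0.07 (95% interval -0.20 to 0.34, limma adjusted p = 0.818). Its cell media values of 14.9, 14.6 and 20.7 FPKM were the lowest 3 of the 12.

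**Figure D2:**
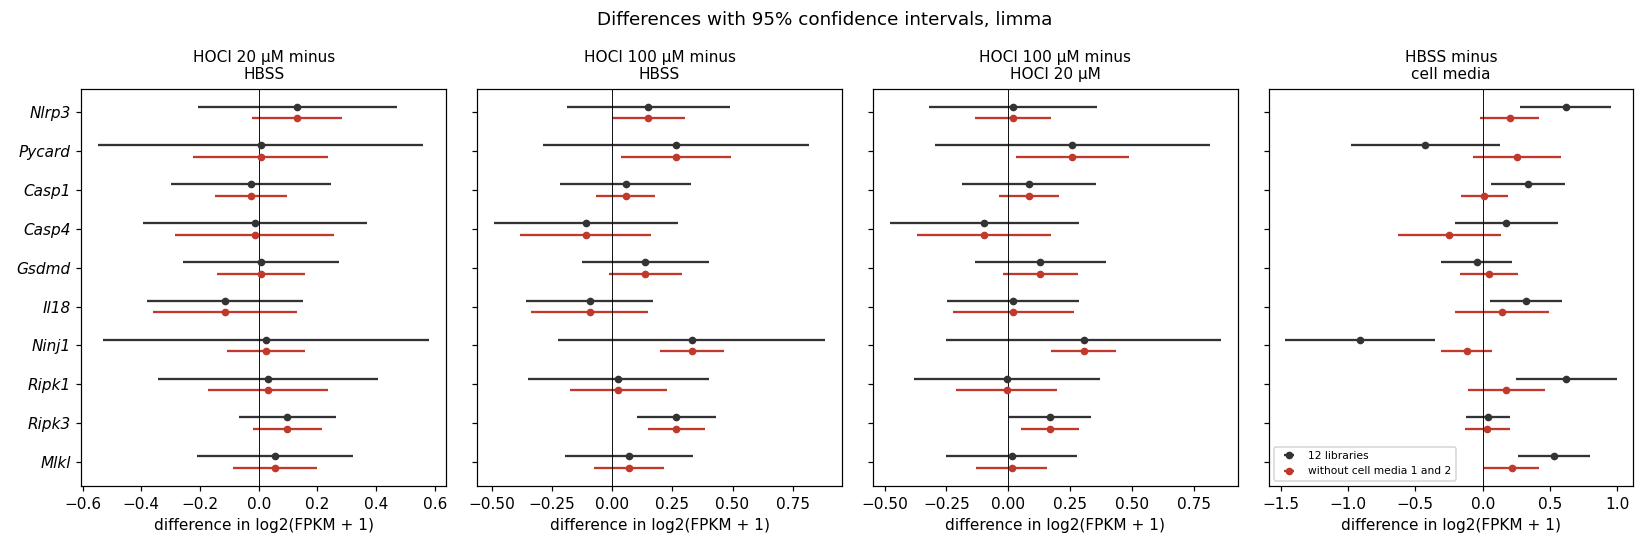
Difference in log2(FPKM + 1) (x axis) of each of the 10 genes (y axis) in the 4 comparisons; points are limma estimates and lines 95% intervals, in black from 12 libraries and in red without cell media replicates 1 and 2. At 100 µM against HBSS the interval of Ripk3 leaves out 0 in both fits and those of Ninj1 and Pycard only in the red one.

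At 20 µM, 7 of the 10 genes were higher and 3 lower than in HBSS, from -0.11 (Il18) to 0.13 (Nlrp3), and 5 higher and 5 lower under median-of-ratios scaling or quantile normalization. None had groups that did not overlap, against 4.21% of all genes higher and 3.48% lower without overlap. limma called 0 of the 10 and 0 of all genes (0%); the count at an unadjusted p under 0.05 was 0 of the 10 and 130 (1.08%) of all, and limma-voom called 0. The 95% intervals of the 10 reached from -0.55 (Pycard) to 0.58 (Ninj1). The widest intervals, those of Pycard and Ninj1, include the spread of cell media, a group outside this comparison. Ninj1 had an SD of 41.3 FPKM in cell media, 4.01 FPKM in HBSS and 1.54 FPKM at 20 µM. For Pycard these were 3.27, 0.554 and 0.505 FPKM. Without cell media replicates 1 and 2 the limma intervals at 20 µM were -0.22 to 0.24 for Pycard and -0.11 to 0.16 for Ninj1. The wider intervals therefore do not show which differences the HBSS and 20 µM libraries allow. Between the doses, 8 of the 10 were higher at 100 µM than at 20 µM and Casp4 and Ripk1 lower. Pycard, Ninj1 and Ripk3 were higher without overlap, where 12.7% of all genes were higher and 15.6% lower in this way. Here too limma and limma-voom called 0 of the 10 and 0 of all genes (0%), with 1 of the 10 and 481 (4%) of all at an unadjusted p under 0.05. The comparisons of the 2 doses share their HBSS libraries, and those of 100 µM share the 100 µM libraries.

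HBSS differed from cell media by more than HOCl differed from HBSS in 8 of the 10 genes (all but Gsdmd and Ripk3), but the size rested on cell media replicates 1 and 2. Nlrp3, Ripk1 and Mlkl were higher in HBSS without overlap, where 12.7% of all genes were higher and 8.91% lower in this way. Their log2 differences were 0.62, 0.62 and 0.53, each with a limma adjusted p of 0.0711. Casp1 was 0.34 higher (adjusted p = 0.0845) and Il18 0.32 higher (adjusted p = 0.0879). Ninj1 was lower in HBSS, at -0.91 (adjusted p = 0.0711), with cell media replicate 3 inside the HBSS range. limma called 0 of the 10 and 2 (0.0166%) of all genes, while 6 of the 10 and 4806 (40%) of all had an unadjusted p under 0.05. All genes had a median difference of 0.10 in this comparison.

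Without cell media replicates 1 and 2, with the remaining library assumed to vary like the other groups, the HBSS differences were 0.20 for Nlrp3, 0.18 for Ripk1, 0.22 for Mlkl, 0.01 for Casp1 and -0.12 for Ninj1. Pycard changed sign, from -0.43 to 0.25, and Casp4 from 0.17 to -0.25. Without cell media replicate 3, 8 of the 10 genes were called, all except Gsdmd and Ripk3, as were 7852 of all 12026 kept genes. Over the 2 cell media libraries that stood apart, Pycard and Ninj1 were above all other libraries, 6 members were below, and Gsdmd and Ripk3 were in neither class. Of the kept genes, 19.25% were above and 37.2% below in this way.

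The other genes of these pathways were read from 7 lists of 81 genes, of which 80 were found and 64 kept. At 100 µM against HBSS, 28 of the 64 were higher and 36 lower, with a median of -0.03 and 0 called by limma. At an unadjusted p under 0.05 there were 4, against 7.76% of all genes. Without overlap, 7 were higher and 11 lower, where 16.5% of all genes were higher and 17.6% lower in this way. Without cell media replicates 1 and 2, limma again called 0 of the 64 (smallest adjusted p = 0.0649). The 6 kept inflammasome sensors other than Nlrp3 were all lower, with a median of -0.15 and limma adjusted p-values from 0.696 up. Under median-of-ratios scaling 5 of the 6 were lower, and under quantile normalization or with the length trend removed 4 were, with Nlrc4 among those that turned. Of the 6, 3 are Naip genes, which are related copies, alike to differing degrees, whose reads may in part be split. Aim2, the sensor of cytosolic DNA, went from 36.6 FPKM in HBSS to 33.4 FPKM (log2 difference -0.13, adjusted p = 0.811). Nlrc4, which works with the Naip receptors, stood at 2.003 and 1.992 FPKM (-0.0044, adjusted p = 0.992).

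Of the inflammasome regulators, 6 of 10 were higher and 4 lower at 100 µM. Pstpip1, which binds pyrin, was at 25.4, 28.4 and 28.6 FPKM in HBSS and 31.5, 34.4 and 32.0 FPKM at 100 µM (log2 difference 0.24, limma adjusted p = 0.633). Panx1, a membrane channel, was at 1.55 and 1.95 FPKM on average (0.21, adjusted p = 0.665). Txnip, a thioredoxin-binding protein reported to bind NLRP3, was lower, at 96.6 FPKM in HBSS and 80.4 FPKM at 100 µM (-0.27, adjusted p = 0.652), without overlap. Nek7, which NLRP3 needs for assembly, was at 20.1 and 18.9 FPKM (-0.09, adjusted p = 0.814), also without overlap. Among 3 kept cytokine and receptor genes, 1 was higher and 2 were lower at 100 µM. The higher gene, Il1rn, the antagonist of the interleukin-1 receptor, was at 2.69, 3.15 and 2.99 FPKM in HBSS and 3.47, 3.98 and 3.68 FPKM at 100 µM. All of its 100 µM libraries lay above HBSS and 20 µM (log2 difference from HBSS 0.26, limma adjusted p = 0.625).

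The 4 kept genes of other gasdermins and cleaving caspases lay between -0.0033 and 0.06 at 100 µM. Gsdme, a gasdermin that caspase-3 cleaves, was at 3.53 FPKM in both groups, and its sign changed with scaling. Casp8, whose product restrains necroptosis, was at 37.98 FPKM in HBSS and 39.4 FPKM at 100 µM (0.05, limma adjusted p = 0.913), and its sign turned under quantile normalization. The 8 genes of pore repair and pore oligomerization, from ESCRT membrane repair and the Ragulator-Rag complex, lay between -0.08 and 0.12, 6 higher and 2 lower.

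Of 22 genes of the death receptor complex, 7 were higher and 15 lower at 100 µM, with a median of -0.06. Cflar, which encodes the caspase-8 partner cFLIP, had the largest difference of the 64 in log2(FPKM + 1), a scale that shrinks differences of low genes. It was at 20.3, 16.0 and 16.5 FPKM in HBSS and 14.3, 11.2 and 10.3 FPKM at 100 µM. The groups did not overlap, and the log2 difference was -0.53 (SE 0.22, limma adjusted p = 0.627). Tnfaip3, which encodes the ubiquitin-editing enzyme A20, was at 2.04 FPKM in HBSS and 1.56 FPKM at 100 µM (-0.25, adjusted p = 0.627). Spata2, which links CYLD to the linear ubiquitin ligase, was at 8.87 and 7.72 FPKM (-0.18, adjusted p = 0.636). Tnf, the ligand, was at 134 and 109 FPKM (-0.29, adjusted p = 0.669), and its groups overlapped. Of 11 other necroptosis genes, 5 were higher and 6 lower. Zbp1, a nucleic acid sensor that can engage RIPK3, was at 0.125 to 0.399 FPKM, or 9 to 28 reads, and was not tested.

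**Figure D3:**
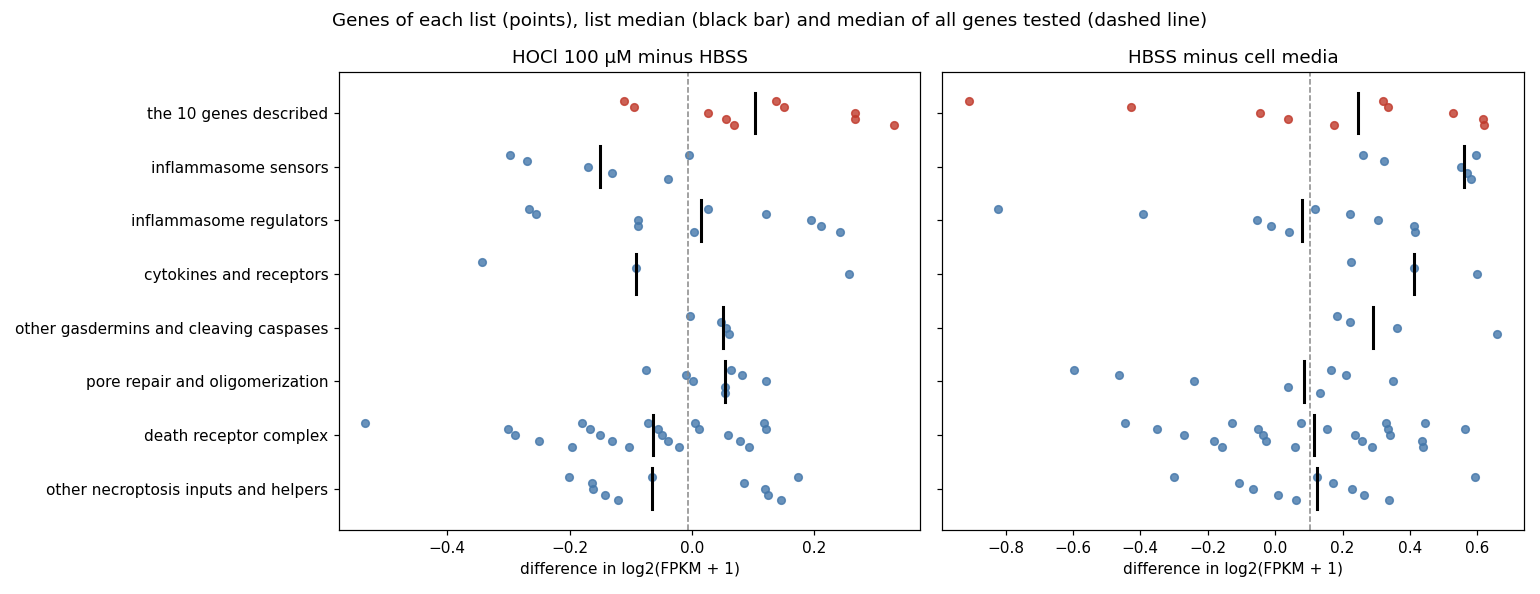
Difference in log2(FPKM + 1) (x axis) of each kept gene in the 10 genes described and the 7 pathway lists (y axis), for 100 µM HOCl minus HBSS and HBSS minus cell media; black bars are list medians and dashed lines the medians of all 12026 genes. At 100 µM the 6 inflammasome sensors lie below 0 and Cflar is the point farthest to the left; up to 2 of the sensors lie above 0 under other scalings.

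The same 6 genes, Il1rn, Pstpip1, Panx1, Tnfaip3, Cflar and Spata2, had the smallest p-values in each direction between the doses, with differences from -0.49 (Cflar) to 0.22 (Pstpip1) and an adjusted p of 0.825 each in limma. At 20 µM against HBSS, 32 of the 64 were higher and 32 lower; the smallest p-values belonged to Il1rn (0.08), Irf2 (0.05), Rnf31 (0.05), Il18bp (-0.19), Txnip (-0.12) and Usp21 (-0.05), on the log2 scale, each with an adjusted p of 1.00. In HBSS against cell media, 45 of the 64 were higher and 19 lower, with 0 called by limma. An unadjusted p under 0.05 was reached by 30 of them, against 40% of all genes. Tlr3 (0.59), Casp8 (0.66) and Nlrc4 (0.58) were higher and Card19 (-0.82), Traf2 (-0.35) and Lamtor1 (-0.60) lower, each with a limma adjusted p of 0.0711. In each of these genes cell media replicates 1 and 2 lay outside the range of all other libraries. Lamtor1 read 46.0, 45.5 and 25.1 FPKM in cell media replicates 1 to 3, and Casp8 18.4, 22.5 and 31.9 FPKM. Of the 64, 10 were above and 32 below all other libraries in both cell media replicates 1 and 2, against 19.25% and 37.2% of the kept genes.

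Differences moved with exon length across all genes. At 100 µM against HBSS the median was 0.12 for genes under 2 kb, 0.03 for those of 2 to 5 kb and -0.09 for those over 5 kb; in HBSS against cell media it was -0.12, 0.03 and 0.24. Ninj1 has an exon length of 1570 bases, Ripk3 of 2292, Pycard of 3800 and Nlrp3 of 4057. Removal of each library's length trend was an alternative chosen after the data were seen. It gave 100 µM differences from HBSS of 0.26 for Ninj1, 0.23 for Ripk3, 0.27 for Pycard and 0.16 for Nlrp3. Overlap of the groups is given only for values without this removal. Casp1 went to -0.02, computed with its M21 length of 1497 bases; that length did not give whole reads and 3136 bases did, so this value is uncertain.

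**Figure D4:**
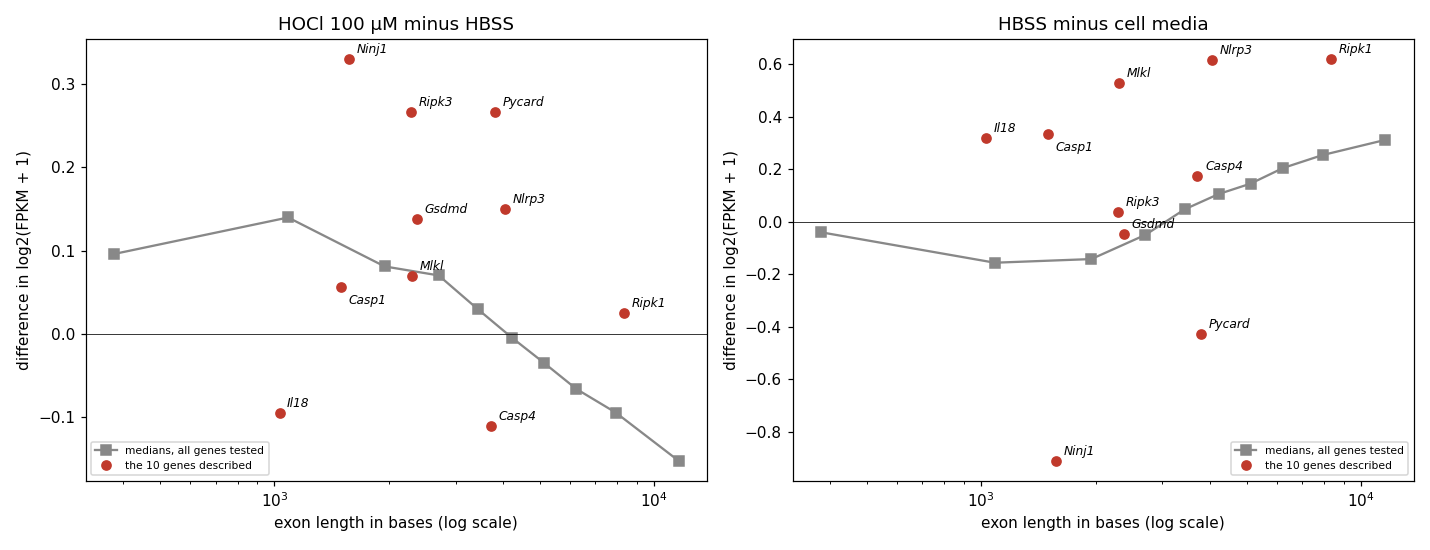
Difference in log2(FPKM + 1) (y axis) against GENCODE M21 exon length in bases (x axis, log scale) for the 10 genes (red) and the medians of 10 equal classes of all genes by length (grey squares). The M21 length of Casp1, 1497 bases, did not give whole reads. Casp1, Casp4, Il18 and Mlkl lie on or below the grey line at 100 µM minus HBSS and the other genes above it; in HBSS minus cell media Pycard and Ninj1 lie below it and the others above.

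The genes most like 3 of the members were ranked by Pearson r of log2(FPKM + 1) over the 10 libraries other than cell media replicates 1 and 2, as a description of values that share libraries and depth. For Nlrp3 they were the splicing factor genes Srsf7 (r = 0.93) and Srsf3 (0.93) and Immp1l (0.92), and over 12 libraries these were 0.93, 0.94 and 0.24. For Gsdmd they were Smpdl3b (0.99), Klc4 (0.98) and Gcsh (0.98), with r from 0.72 to 0.86 over 12. For Mlkl they included Tssc4 (0.94) and Ppa1 (0.94). Over 12 libraries Ppa1 had an r of 0.19 and Tssc4 of -0.62.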

How the data were processed

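Messenger RNA of 12 J774A.1 libraries was analysed from the FPKM table that the authors deposited. The reads were processed with HISAT2, featureCounts and build GRCm39 per the submitters' processing notes; versions, annotation and strand are not given in the sources used here. Symbols and exon lengths came from GENCODE M21, of another build, so no gene coordinates are given; promoter sequences are RefSeq's, on GRCm38.p6. Below 1 FPKM, 98.26% of values were whole reads within 0.01, which gave the depths and the reads for limma-voom.

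Genes with at least 1 FPKM in at least 3 libraries were kept (12026). The test was limma 3.58.1 in R 4.3.3 on log2(FPKM + 1), pseudocount 1, with group means over all 12 libraries, a mean-variance trend, no covariate and Benjamini-Hochberg adjustment over all kept genes, called under 0.05, two-sided. The fit was tested on simulated data, with the spread of each gene taken from the HBSS and HOCl groups for all 12 libraries. No simulated library stood apart as cell media replicates 1 and 2 did. The simulation therefore does not show how the fit behaves with them. The 10 members, the 7 pathway lists and the marker lists were chosen with earlier results of these data known. Named from the pathways were any called gene, up to 3 higher and 3 lower genes with the smallest p in each comparison, and Il1b, Aim2, Nlrc4, Nek7, Txnip, Gsdme, Casp8, Tnf, Zbp1 and Cflar at 100 µM. Other settings tried were a pseudocount of 0.1 or 0.5, all genes unfiltered, genes with a mean from 5 FPKM up, quantile or median-of-ratios scaling, the replicate number as a block, leaving out cell media 1 and 2 or each library, limma-voom, and, added after seeing the data, removal of the exon length trend (loess span 0.5) and the block without cell media 1 and 2. Tables were made in Python 3.11.15 with pandas 2.3.3 and plots with matplotlib 3.10.9. One gene that the rule for likeness names is not reported here.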

Additional observations from a re-analysis of the deposited data

How the results depend on the processing

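Of 1189 values of 71 log2 differences under the alternatives, 1095 kept direction and side of the threshold, 65 changed sign and 29 passed the threshold only under the alternative. None of the 71 was called in the main fit, so no call could be lost. The causes were not tested. Depth limits Il18 most, which had 66 to 128 reads a library. Genes called without a filter were 6 at 20 µM, 1 at 100 µM against HBSS, 11 between the doses and 5 in HBSS against cell media. In HBSS against cell media (2 called), a pseudocount of 0.5 and a mean of at least 5 FPKM gave 1, quantile normalization and limma-voom 4, removal of the length trend 17 and omission of cell media 1 and 2 gave 0. That omission gave 29 genes (0.241%) at 100 µM against HBSS, none of them among the 10. Leaving out 1 library gave 0 to 1 called genes at 100 µM against HBSS (1 without HBSS replicate 3) and 0 to 7852 in HBSS against cell media (7852 without cell media replicate 3, and 0 without any of the other 5).

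The replicate number as a block gave 193 genes in HBSS against cell media and 0 in the 3 HOCl comparisons. Same-numbered libraries did not deviate together in all pairs (r from -0.06 to 0.35 at 20 µM and from -0.03 to 0.26 at 100 µM against HBSS). There 3 and 2 of 6 libraries correlated best with their own number, and 2 of 6 in HBSS against cell media. Between the doses it was 5 of 6, with r from 0.05 to 0.41 for same-numbered pairs and from -0.41 to 0.08 for other pairs. The numbers were not taken to pair samples, but these values do not settle whether they do. The block without cell media 1 and 2 gave 2979 of all 12026 genes at 100 µM against HBSS and 2088 of them between the doses. In that fit Pycard, Ninj1 and Ripk3 were called by limma at 100 µM against HBSS (adjusted p = 0.0152, 0.0151 and 0.0146) and between the doses (0.0276, 0.0276 and 0.0278).

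Under median-of-ratios scaling the following log2 differences changed sign: Pycard (-0.00076) and Gsdmd (-0.00082) at 20 µM, Nlrc4 (0.0067) and Gsdme (0.0091) at 100 µM against HBSS, Ripk1 (0.016) between the doses and Ripk3 (-0.076) in HBSS against cell media. Under quantile normalization they were Pycard (-0.0038) and Gsdmd (-0.0047) at 20 µM, Nlrc4 (0.059), Gsdme (0.042) and Casp8 (-0.025) at 100 µM against HBSS, and Ripk1 (0.047) and Mlkl (-0.017) between the doses. With the length trend removed they were Casp1 (-0.017), Nlrc4 (0.024) and Gsdme (0.13) at 100 µM against HBSS, Il18 (-0.045), Ripk1 (0.094) and Mlkl (-0.029) between the doses, and Gsdmd (0.024) in HBSS against cell media. Without cell media 1 and 2, HBSS against cell media gave 0.25 for Pycard, -0.25 for Casp4 and 0.046 for Gsdmd, and with the replicate block added 0.33, -0.31 and 0.10.

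Leaving out 1 library at a time moved these log2 differences across 0. At 20 µM against HBSS the ranges were -0.084 to 0.086 for Pycard, -0.044 to 0.0024 for Casp1, -0.10 to 0.14 for Casp4, -0.046 to 0.051 for Gsdmd, -0.19 to 0.0096 for Il18, -0.021 to 0.088 for Ninj1, -0.018 to 0.069 for Ripk1, -0.014 to 0.10 for Irf2 and -0.012 to 0.091 for Rnf31. At 100 µM against HBSS they were -0.19 to 0.046 for Casp4, -0.17 to 0.029 for Il18, -0.061 to 0.11 for Ripk1, -0.082 to 0.037 for Nlrc4, -0.050 to 0.040 for Gsdme and -0.023 to 0.13 for Casp8. Between the doses they were -0.040 to 0.055 for Nlrp3, -0.034 to 0.071 for Il18, -0.093 to 0.079 for Ripk1 and -0.019 to 0.046 for Mlkl. In HBSS against cell media they were -0.15 to 0.10 for Gsdmd and -0.012 to 0.086 for Ripk3. For the 4 genes that did not overlap at 100 µM, the alternatives gave 0.10 to 0.19 for Nlrp3, 0.18 to 0.33 for Pycard, 0.26 to 0.39 for Ninj1 and 0.23 to 0.29 for Ripk3. Without overlap, leaving out a library or changing the pseudocount could not turn the direction. The kept sign under those settings therefore does not set these 4 genes apart.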

Other observations

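Over the 10 libraries other than cell media replicates 1 and 2, log2 levels of Pycard, Gsdmd and Ripk3 followed each other, with Pearson r of 0.87 between Pycard and Gsdmd, 0.90 between Pycard and Ripk3 and 0.87 between Gsdmd and Ripk3; over all 12 libraries these were 0.66, 0.18 and 0.64. Casp4 ran against several of the others, with r of -0.82 with Pycard, -0.82 with Mlkl and -0.80 with Gsdmd, and -0.85, 0.43 and -0.50 over 12. The highest r of Il18 over 10 libraries was 0.39, with Mlkl, and over 12 it was 0.78 with the same gene. Ninj1 was closest to Ripk3 over 10, at 0.76, a value that was -0.22 over 12, where Ninj1 was closest to Pycard at 0.82. The points share libraries and depth, these pairs were named after their values were seen, and the signs of Casp4 with Mlkl and of Ninj1 with Ripk3 rested on the 2 cell media libraries.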
